A study of Bos taurus with 16 samples.

Results

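In total, 8 genes with known roles in the brain vessel wall were followed in the prefrontal cortex (PFC) of 16 bulls. By these roles CLDN5, CDH5, ESAM and FLT1 were grouped as endothelial, VCAM1 and ACKR1 as venular endothelial, and PDGFRB and CSPG4 as mural. Whether their RNA came from these cells in this tissue was not tested. The 8 genes were chosen for their measured values. Each stands in the study's list of genes that differed between the breeds in these same animals. Of the 1197 entries of that list, 1163 could be paired with a single gene by identical chromosome, start and end, among them all 8 vascular genes, and the files held 27607 genes in all. The difference between the breeds, in total and for each farm, is therefore given for these genes as a description without a test. The animals were 8 Lidia bulls, a breed selected for aggressive behaviour, and 8 Wagyu bulls, a tame beef breed. Of the Lidia bulls, 4 came from the farm La Quinta and 4 from Montealto, numbered 1 to 4 within each farm in the order of their labels, whereas the Wagyu bulls all came from Nuestro Buey. All were uncastrated males labelled as 3 years old, apart from Montealto 4 with 4 years. The Lidia bulls were provoked before a bullfight and sampled at the bullring, and the Wagyu bulls were sampled at a slaughterhouse after transport, so that breed, farm, feeding, place and handling before death cannot be told apart.

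The endothelial cells of brain capillaries seal the vessel with tight and adherens junctions and form, with the pericytes that wrap them, the blood-brain barrier. Pericytes depend on signalling of platelet-derived growth factor through PDGFRB, and endothelial cells respond to vascular endothelial growth factor through receptors of the FLT1 family. The postcapillary venules are the segment where leukocytes adhere, and it is there that the adhesion molecule VCAM1 and the chemokine-binding receptor ACKR1 are known to act.

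Levels are given as FPKM, that is, fragments scaled to the exon length of a transcript and to all fragments mapped in the animal, summed over the transcripts of a gene and divided by a factor for each animal (median of ratios, over the genes above 0 in all 16). Such a level is per length, so that it can be compared between genes. The fragments behind the values came to between 7.67 M and 37.0 M in an animal (M, 10 to the power of 6), with 200 bases counted for a fragment. In 3 animals the library stood apart. The factors of La Quinta 4 and Wagyu 5 were 1.77 and 2.19, on 13.7 M and 7.67 M fragments, against 0.612 to 1.12 in the other 14. Montealto 2 had the lowest factor, 0.612, and the largest scatter around the other animals of its breed over all tested genes (SD of the log2 deviation 0.958, against 0.482 to 0.813 in the other 15). The mitochondrial share of the FPKM was highest in Wagyu 5, with 39.3%, and Montealto 2, with 38.4%. It ran from 22.2 to 38.4% in the Lidia bulls (median 28.5%) and from 17.8 to 39.3% in the Wagyu bulls (median 22.7%), and its part in the breed differences below was not tested. Some of the values that rest on these animals are given with and without them. In a piece of tissue, fewer cells of a type and less RNA per cell cannot be told apart.

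On the assembly ARS-UCD 1.2 the 8 genes lay on 7 chromosomes, and only VCAM1 (ENSBTAG00000007773, chromosome 3, 42553488 to 42576599, minus strand) and ACKR1 (ENSBTAG00000003220, chromosome 3, 10525788 to 10528190, minus strand) shared a chromosome. CLDN5 (ENSBTAG00000022020, chromosome 17, 72734557 to 72735831, minus strand) was annotated as a single exon. ESAM (ENSBTAG00000001004) lay on chromosome 29 from 28232748 to 28241470, minus strand, and CSPG4 (ENSBTAG00000012219) on chromosome 21 from 33182725 to 33218500, plus strand. CDH5 (ENSBTAG00000007421, chromosome 18, 34122601 to 34160211, plus strand), FLT1 (ENSBTAG00000016915, chromosome 12, 31624125 to 31829369, plus strand) and PDGFRB (ENSBTAG00000002804, chromosome 7, 61474501 to 61511284, minus strand) had 2 annotated transcripts each, the others 1. Within the bounds of FLT1 lies 1 other gene, of 78 bases on the opposite strand, listed at 0 in all animals. All 8 genes passed the filter of a mean of 0.1 FPKM.

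The junction genes were higher in the Lidia bulls. CLDN5 encodes claudin 5, the tight junction protein of the blood-brain barrier, and was the most abundant of the 8 genes. The Wagyu bulls held between 11.2 and 24.6 FPKM of CLDN5, with a median of 15.4. In La Quinta 1 to 4 it stood at 31.5, 24.2, 25.8 and 26.1 FPKM, and in Montealto 1 to 4 at 21.99, 98.4, 21.8 and 26.6. A single animal, Montealto 2, stood far above the rest, and the whole Wagyu group was exceeded by 5 of the 8 Lidia bulls. The difference in mean log2(FPKM + 0.1), the scale of all differences below, was 0.93 ± 0.27 (SE, 8 against 8), and 0.68 without Montealto 2.

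CDH5, the cadherin of endothelial adherens junctions, ranged from 0.592 to 2.68 FPKM in the Wagyu bulls, with a median of 1.16. The La Quinta bulls held 2.23, 2.89, 3.85 and 3.58 FPKM of CDH5 and the Montealto bulls 5.11, 2.97, 2.21 and 2.57, in the order given for CLDN5. Of the 8 Wagyu bulls, 7 lay below every Lidia bull, the exception being Wagyu 3. The log2 difference was 1.27 ± 0.25 (SE), a fold of 2.41 on this scale. ESAM, an adhesion molecule of endothelial junctions, lay between 1.00 and 2.82 FPKM in the Wagyu bulls (median 1.29) and between 1.93 and 5.66 in the Lidia bulls (median 2.52), with a log2 difference of 0.87 ± 0.23. Its highest value was again that of Montealto 2, without which the difference was 0.72.

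FLT1 encodes the VEGF receptor 1, which binds the growth factor tightly and also exists as a soluble decoy. Its Wagyu levels ran from 1.73 to 4.77 FPKM, with a median of 2.88, and its log2 difference was the smallest of the 6 genes that were higher in the Lidia bulls, 0.52 ± 0.18 (SE). The La Quinta bulls held 3.29, 3.46, 3.97 and 3.42 FPKM of FLT1 and the Montealto bulls 5.21, 4.52, 4.46 and 5.09, so that after rescaling the farms did not overlap, as in 3.61% of all genes, while on the values as deposited they did. Against the Wagyu bulls the log2 difference of FLT1 was 0.30 ± 0.20 in La Quinta and 0.74 ± 0.20 in Montealto.

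The pair of genes grouped as venular by their known roles moved in opposite directions. Whether both came from venular cells in this tissue was not tested. VCAM1, the endothelial ligand of leukocyte integrins, was the only one of the 8 genes whose breeds did not overlap. In the Wagyu bulls it ranged from 0.0789 to 0.664 FPKM with a median of 0.455, the lowest value, in Wagyu 1, resting on about 5.38 fragments. In La Quinta it stood at 1.07, 1.10, 1.93 and 1.57 FPKM and in Montealto at 1.65, 1.47, 1.05 and 0.842. The log2 difference of VCAM1 was 1.63 ± 0.28 (SE), the largest of the 8, and depended on the constant added before the logarithm, being 0.74 with 1 in place of 0.1. ACKR1, the atypical receptor that takes up chemokines and moves them across venular endothelium, was lower in the Lidia bulls. It ranged from 5.01 to 13.7 FPKM in the Wagyu bulls (median 8.22), from 3.58 to 6.73 in La Quinta and from 3.87 to 9.85 in Montealto. In 2 Lidia bulls ACKR1 lay below every Wagyu bull. Its log2 difference was -0.64 ± 0.22 (SE), and -0.76 without Montealto 2.

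The pair grouped as mural by known roles was opposed as well. Whether both came from mural cells in this tissue was not tested. PDGFRB is the receptor on whose signalling pericytes depend. It stood at 2.10, 2.81, 3.38 and 2.96 FPKM in La Quinta and at 3.74, 1.65, 2.40 and 2.04 in Montealto. The Wagyu bulls ranged from 0.624 to 2.72 FPKM of PDGFRB with a median of 1.25, and only Wagyu 3 exceeded any Lidia bull. The lowest Lidia value was that of Montealto 2. The log2 difference was 0.94 ± 0.22 (SE), 1.03 without Montealto 2, and 0.63 with 1 as the constant. CSPG4 encodes the proteoglycan NG2, which marks pericytes and also the precursors of oligodendrocytes. It was the lowest of the 8 genes in the Lidia bulls, at 0.234 to 0.336 FPKM in La Quinta and 0.253 to 0.698 in Montealto, against 0.468 to 0.684 in the Wagyu bulls. In 6 Lidia bulls it lay below every Wagyu bull, while Montealto 2 lay above all of them. The log2 difference of CSPG4 was -0.57 ± 0.17, and -0.69 without Montealto 2. It also depended on the constant, being -0.21 with 1 in place of 0.1.

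**Figure D1:**
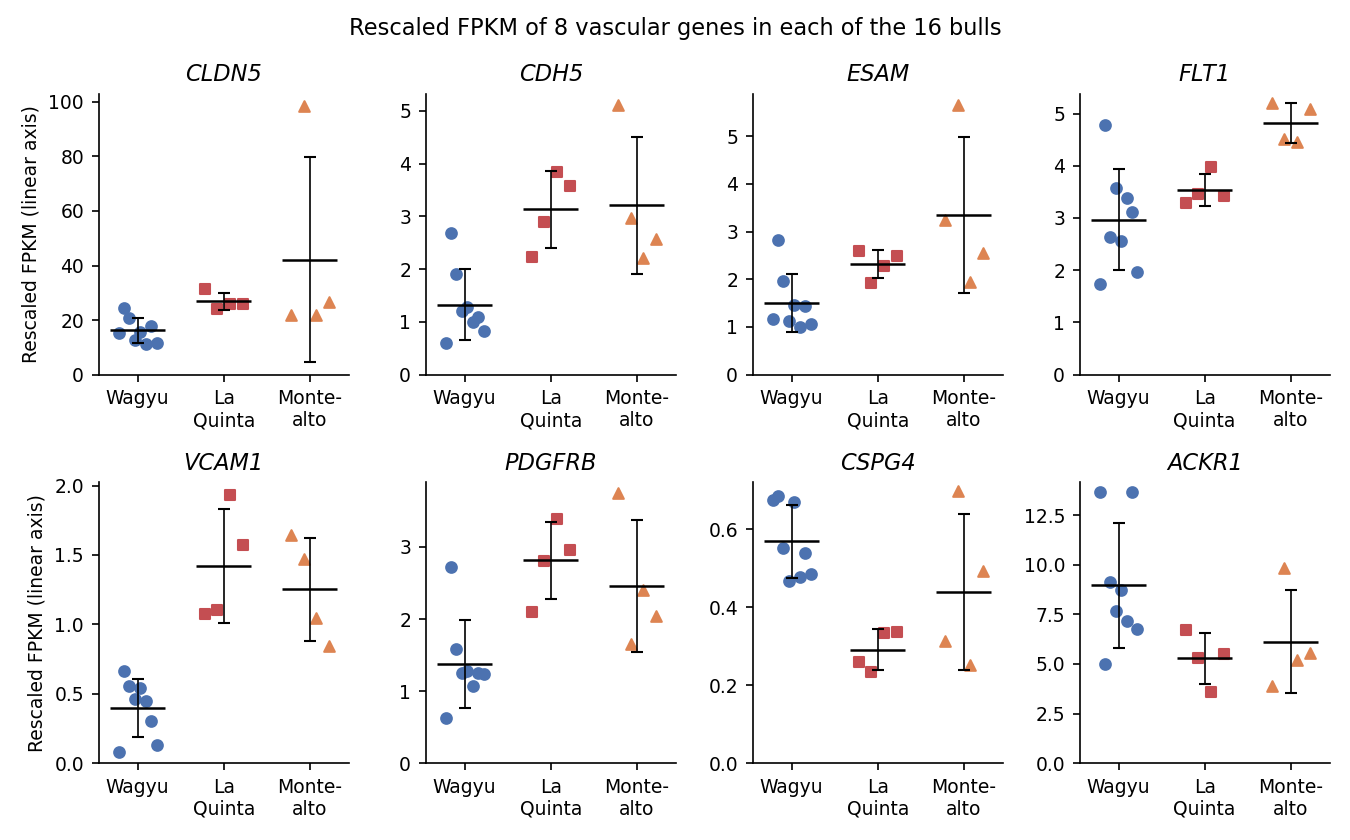
Rescaled FPKM (linear axis, each panel with its own range) of the 8 vascular genes, with 1 point per bull, for the 8 Wagyu bulls and the 4 Lidia bulls of each farm; the line is the group mean and the bar the SD. CLDN5 of 1 Montealto bull reached 98.4, VCAM1 had no overlap between the breeds, and in CSPG4 and ACKR1 the Lidia bulls were lower.

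Ratios within an animal do not depend on how the libraries are scaled. Both ratios below divide a gene chosen as higher in the Lidia bulls by one chosen as lower, so that their separation by breed follows from the choice and is given as a description. The FPKM of PDGFRB divided by that of CSPG4 ran from 0.925 to 3.97 in the Wagyu bulls (median 2.43) and from 2.36 to 11.996 in the Lidia bulls (median 9.14), and the whole Wagyu group was exceeded by 7 of the 8 Lidia bulls. The exception was Montealto 2, with 2.36. The ratio of VCAM1 to ACKR1 ran from 0.00578 to 0.132 in the Wagyu bulls (median 0.0608) and from 0.149 to 0.540 in the Lidia bulls (median 0.205), without overlap. In both ratios the highest Wagyu value was that of Wagyu 3 and the lowest Lidia value that of Montealto 2.

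Over all 16587 genes tested, limma called 826 between the breeds (adjusted p no higher than 0.05, log2 difference of 0.1 or more in size), which is 4.98% of them, and 0.705% had breeds that did not overlap. Of the 8 vascular genes 4 were called (VCAM1, CDH5, PDGFRB and ESAM, all higher in the Lidia bulls) and 1 did not overlap. As the genes were chosen on this contrast, nothing is read from these counts. On the FPKM as deposited, without the factors, 0 genes were called by limma and 1022 had an unadjusted p under 0.05, while the exact two-sided rank-sum test on the rescaled values gave 651 calls. The 8 log2 differences kept their signs as deposited, from 1.56 for VCAM1 to -0.68 for ACKR1.

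The differences of the farms from the Wagyu bulls are parts of the contrast that chose the genes and share the same 8 Wagyu bulls, so nothing is read from their common sign. For CDH5 the log2 difference from the Wagyu bulls was 1.28 ± 0.31 (SE) in La Quinta and 1.26 ± 0.31 in Montealto, for VCAM1 1.72 ± 0.36 and 1.547 ± 0.36, and for PDGFRB 1.06 ± 0.27 and 0.82 ± 0.27. ACKR1 gave -0.72 ± 0.27 and -0.56 ± 0.27, or -0.81 in Montealto without Montealto 2. CSPG4 gave -0.77 ± 0.20 in La Quinta and -0.37 ± 0.20 in Montealto, or -0.59 in Montealto without Montealto 2.

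The difference between the 2 Lidia farms was not used to choose the genes. None of the 8 passed between the farms in the test across all genes, with adjusted p (limma, Benjamini-Hochberg) of 0.8287 to 1, where 15 of 16587 genes, 0.0904%, were called. FLT1 came closest, lower in La Quinta by a log2 difference of -0.44 ± 0.23 (SE, 4 against 4; limma adjusted p = 0.8287, unadjusted p = 0.0768). FLT1 was the only one of the 8 whose farms did not overlap. This separation rested on the scaling, since as deposited the La Quinta bulls ran from 3.36 to 6.05 FPKM and the Montealto bulls from 2.76 to 5.57, with a log2 difference of -0.09. CSPG4 gave -0.40 ± 0.23 between the farms (limma adjusted p = 0.8287) and -0.19 without Montealto 2. In CLDN5 the sign of the farm difference turned with this animal, from -0.32 ± 0.38 to 0.20. The SE of 0.23 to 0.41 left farm differences of that size undetectable with 4 animals a side.

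**Figure D2:**
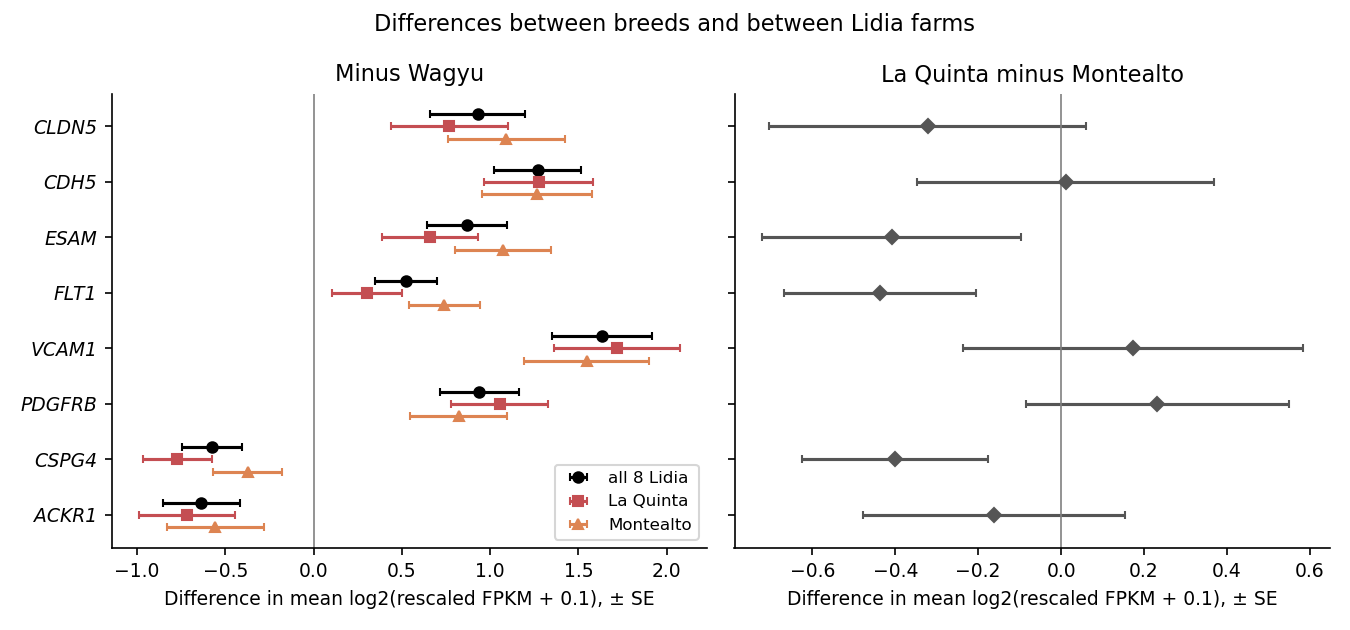
Differences in mean log2(rescaled FPKM + 0.1) with their SE for the 8 genes, on the left of all 8 Lidia bulls and of each farm from the 8 Wagyu bulls, on the right of La Quinta from Montealto. On the left 6 genes lie right of 0 and CSPG4 and ACKR1 left of 0 in both farms, and the farm difference of FLT1 is -0.44.

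The levels of the 8 genes were ordered within each breed. In the Lidia bulls the mean levels followed the order CLDN5, ACKR1, FLT1, CDH5, ESAM, PDGFRB, VCAM1 and CSPG4. In the Wagyu bulls it was CLDN5, ACKR1, FLT1, ESAM, PDGFRB, CDH5, CSPG4 and VCAM1. All 8 genes had been chosen for their difference between the breeds, and the orders of the breeds were not compared by a test. Of the 14 steps between neighbours, 9 passed an exact two-sided sign-flip permutation test after adjustment over the 14. The neighbours and the direction of each step were set by the same values that were tested. The p-values therefore describe how steady a step was across the animals and are no independent test of the order. CLDN5 exceeded ACKR1 in 8 of 8 Lidia bulls by a mean of 2.44 ± 0.42 (SD, log2) and in 8 of 8 Wagyu bulls by 0.87 ± 0.64 (adjusted p = 0.0182 for each, exact permutation). ACKR1 exceeded FLT1 by 1.554 ± 0.84 in 8 of 8 Wagyu bulls (exact permutation, adjusted p = 0.0182). In the Lidia bulls this step was 0.40 ± 0.54 and did not pass (6 of 8, adjusted p = 0.120, exact permutation), and the difference between the steps was not tested. VCAM1 exceeded CSPG4 in 8 of 8 Lidia bulls by 1.64 ± 0.54 (exact permutation, adjusted p = 0.0182). In the Wagyu bulls CSPG4 exceeded VCAM1 in 7 of 8, by 0.56 ± 0.78 (exact permutation, adjusted p = 0.0410), a call that was lost when Wagyu 1, 3, 6, 7, 9 or 12 was left out (adjusted p up to 0.0729). The steps between neighbours among CDH5, ESAM and PDGFRB did not pass in either breed, with means of 0.06 to 0.19. Only neighbours were tested.

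Differences between animals of the same breed were not used to choose the genes, so the covariation within breed was tested. The genes and the lists below were, however, chosen with earlier results of these data known. There were 28 pairs in each breed and 56 relations over both, on log2(FPKM + 0.1). Of these, 4 passed an exact two-sided permutation test after Benjamini-Hochberg adjustment over the 56, and 16 had an unadjusted p under 0.05. Pearson's r was positive in 18 of 28 pairs in the Lidia bulls and in 21 of 28 in the Wagyu bulls, and 19 pairs had the same sign in both breeds. The values of an animal share its library and its factor.

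CLDN5 and ESAM rose and fell together in the Wagyu bulls, with r = 0.95 and rho = 0.98 (n = 8, exact permutation, adjusted p = 0.0111 and 0.00741), and r = 0.92 without the 2 animals farthest from the median of CLDN5. In the Lidia bulls r was 0.87 (n = 8, exact permutation, adjusted p = 0.242) and fell to 0.13 without Montealto 2. CDH5 and PDGFRB gave r = 0.94 and rho = 0.98 in the Wagyu bulls (n = 8, exact permutation, adjusted p = 0.0231 and 0.00741), and r = 0.83 without the 2 farthest animals. In the Lidia bulls r was 0.74 (exact permutation, adjusted p = 0.145), and 0.92 without Montealto 2. The cell types behind this relation were not tested, and PDGFRB also followed the meningeal list described below. CDH5 and VCAM1 gave r = 0.86 and rho = 0.98 in the Wagyu bulls (n = 8, exact permutation, adjusted p = 0.0153 and 0.00741), 0.76 without the 2 farthest, and r = 0.79 in the Lidia bulls (exact permutation, adjusted p = 0.113).

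The fourth pair was opposed. In the Lidia bulls PDGFRB was lower where ACKR1 was higher, with r = -0.90 (n = 8, exact permutation, adjusted p = 0.0431) and rho = -0.86, which did not pass, and r = -0.83 without the 2 bulls farthest from the median of ACKR1. The Wagyu bulls gave r = -0.71 (n = 8, exact permutation, adjusted p = 0.192) and rho = -0.26, and neither passed. With breed means removed, r over the 16 bulls was -0.78, and 266 of 16586 genes lay farther on the negative side for ACKR1. As deposited, without the factors, r in the Lidia bulls was 0.10, so the relation depended on the scaling. ACKR1 was negatively correlated with 6 of the 7 other genes in the Wagyu bulls and with 4 of 7 in the Lidia bulls, among them CDH5 with -0.58 and -0.54, neither of which passed.

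Each of the 3 Wagyu relations lost its call when Wagyu 3 or Wagyu 4 was left out, with 0 of 56 passing in either case. CDH5 with VCAM1 lost it also without Wagyu 12 and CDH5 with PDGFRB also without Wagyu 1, although r stayed between 0.77 and 0.98 in these 3 pairs whichever animal was omitted. For ACKR1 and PDGFRB in the Lidia bulls r stayed between -0.95 and -0.84, and the adjusted p between 0.0344 and 0.138 (exact permutation), above 0.05 for 11 of the 16 omissions. Without La Quinta 4 and Wagyu 5 together, 2 of the 56 relations passed.

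**Figure D3:**
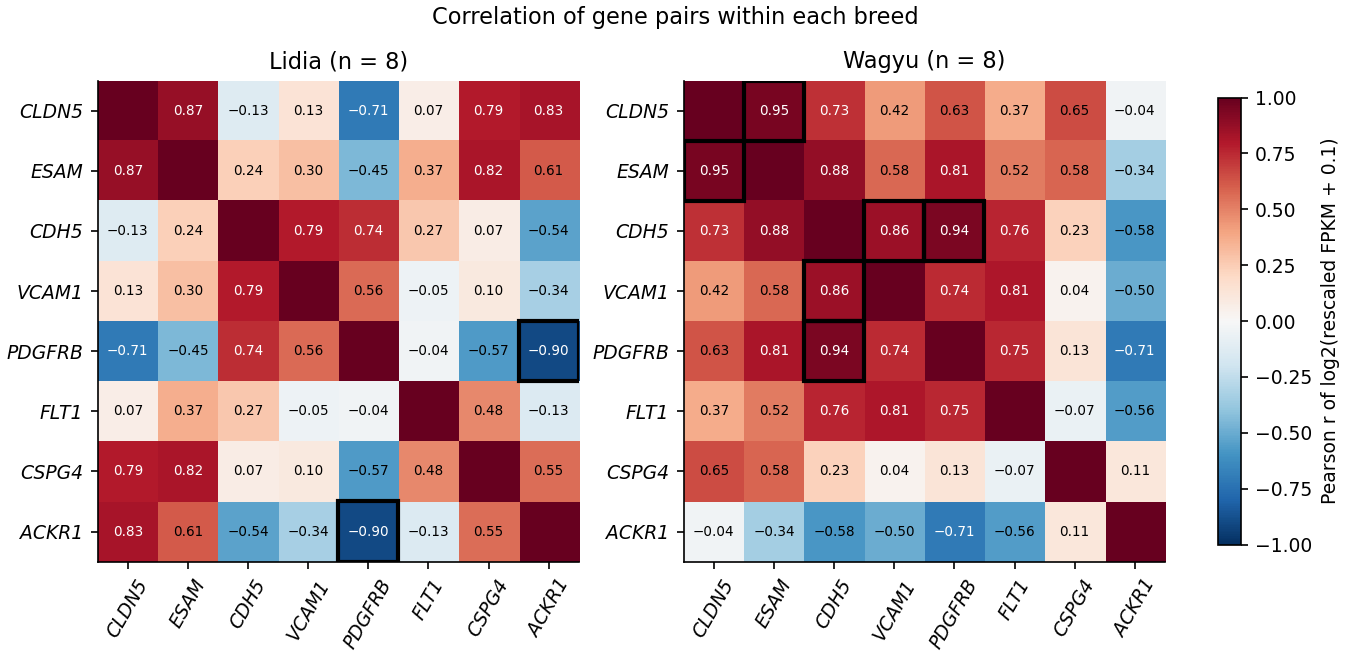
Pearson r of log2(rescaled FPKM + 0.1) between the 8 genes over the 8 Lidia bulls (left) and the 8 Wagyu bulls (right), red positive and blue negative. Black frames mark the 4 relations that passed the exact permutation test after adjustment over 56, 1 in the Lidia and 3 in the Wagyu bulls.

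**Figure D4:**
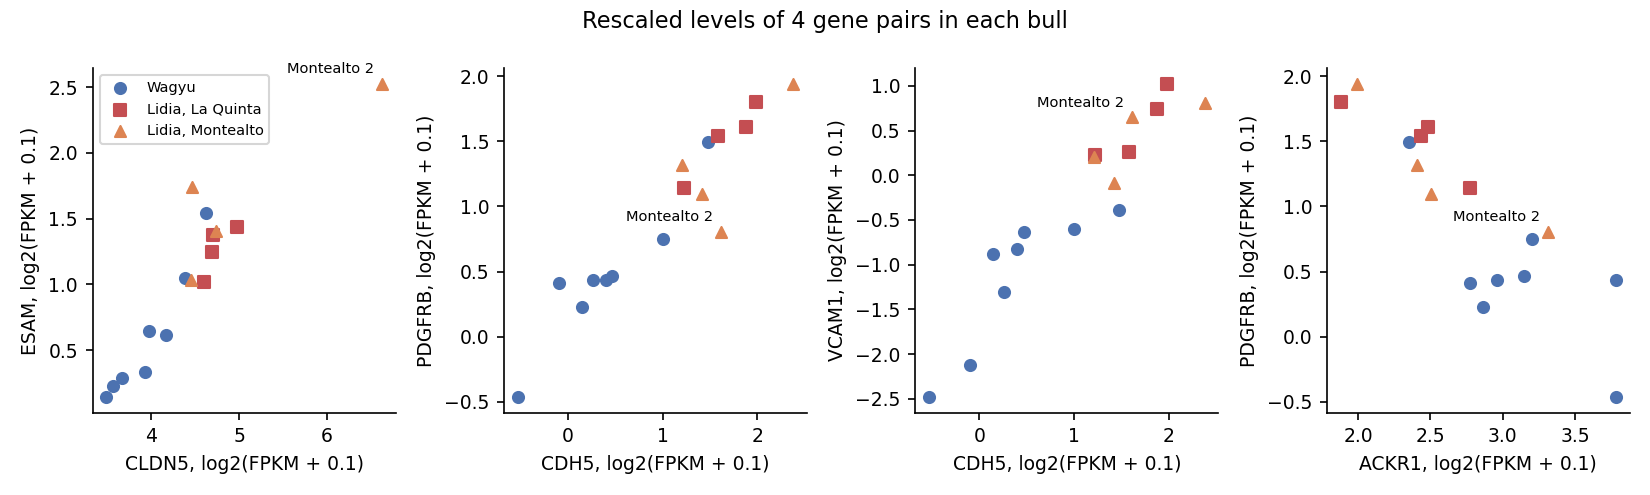
Levels of 4 gene pairs as log2(rescaled FPKM + 0.1) on both axes, 1 point per bull, with Montealto 2 marked. CLDN5 and ESAM, CDH5 and PDGFRB, and CDH5 and VCAM1 run upward in the Wagyu bulls, and PDGFRB runs downward against ACKR1 in the Lidia bulls (r = -0.90).

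The within-breed extremes gathered in few animals. Wagyu 3 was the highest Wagyu bull in 7 of the 8 genes and the lowest in ACKR1. Wagyu 1 was the lowest of its breed in CDH5, FLT1, VCAM1 and PDGFRB. In the Lidia breed, Montealto 2 was highest in CLDN5, ESAM, ACKR1 and CSPG4 and lowest in PDGFRB, and Montealto 1 was highest in CDH5, FLT1 and PDGFRB. Wagyu 3 also had the highest summed level of the endothelial list described below in its breed (103 FPKM, against 46.5 to 79.8 in the other 7) and the lowest of the neuronal list (555, against 651 to 920).

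Leptomeningeal cells line the surface of the cortex, and their markers varied with some of the vascular genes. Of the 13 genes of a meningeal list, 11 had a name in the study's list, and their summed level ran from 16.8 to 121 FPKM in the Lidia bulls and from 6.81 to 35.1 in the Wagyu bulls, none of the 11 being at 0. In the Lidia bulls PDGFRB followed this sum with r = 0.94 and rho = 0.93 (n = 8, exact permutation, adjusted p = 0.0167 and 0.0357 over 16 relations), r = 0.90 without the 2 farthest animals. CDH5 gave r = 0.84 (n = 8, exact permutation, adjusted p = 0.0244) and ACKR1 r = -0.81 (n = 8, exact permutation, adjusted p = 0.0234). By rank these did not pass, with rho = 0.74 for CDH5 and -0.81 for ACKR1 (n = 8, exact permutation, adjusted p = 0.0917 and 0.0581). The call of PDGFRB was kept whichever animal was left out (exact permutation, adjusted p up to 0.0300). That of CDH5 was lost for 6 of the 16 omissions (Wagyu 3 and 4 and La Quinta 1, 3 and 4 and Montealto 1, r of 0.78 to 0.84) and that of ACKR1 without La Quinta 1 or Montealto 2 (r = -0.80 and -0.76). As deposited, ACKR1 gave r = -0.09. CLDN5 gave r = -0.58 and did not pass (exact permutation, adjusted p = 0.0960). In the Wagyu bulls CLDN5, CDH5, ESAM and PDGFRB passed with r of 0.80 to 0.91, but the sum was 35.1 and 30.8 in Wagyu 3 and Wagyu 4 against 6.81 to 11.7 in the other 6, and without the 2 farthest animals r lay between 0.45 and 0.57. These Wagyu relations thus rested on 2 animals, and by rho none of the 4 passed (exact permutation, adjusted p of 0.0579 to 0.0638). FLT1, VCAM1 and CSPG4 passed in neither breed. The part of meningeal tissue in the differences of the 8 genes between the breeds was not tested.

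Relations with 4 further lists, 64 in all, were added after the data had been seen, and 3 passed. CDH5 and VCAM1 followed the endothelial list in the Wagyu bulls (r = 0.94 and 0.69, n = 8, exact permutation, adjusted p = 0.0175 and 0.0296). ACKR1 did not follow it, with r of -0.04 in the Lidia and -0.50 in the Wagyu bulls, and neither passed. FLT1 ran against the neuronal list in the Wagyu bulls, with r = -0.97 (n = 8, exact permutation, adjusted p = 0.0175), and -0.91 without the 2 farthest animals. In the Lidia bulls this r was -0.24. With the oligodendrocyte list no relation passed. ACKR1 gave r of 0.71 and 0.68 in the Lidia and Wagyu bulls, and CSPG4 gave 0.72 and 0.74. Montealto 2 had an oligodendrocyte sum of 403 FPKM, the highest of the Lidia bulls. Without the 2 Lidia bulls farthest from the median, this animal among them, r was -0.67 for ACKR1 and 0.12 for CSPG4, and rho over all 8 was 0.26 and -0.02. None of the 16 relations with the mural list passed. In the Lidia bulls that sum was 183 FPKM in Montealto 2 against 40.1 to 51.5 in the other 7. Most of the 183 came from 1 gene, PPP1R14A, with 131 FPKM (Lidia median 23.2). PDGFRB, grouped here as mural, gave r of -0.55 and 0.06 with the mural list in the Lidia and Wagyu bulls. Without the 2 farthest animals of each breed these were 0.64 and 0.65.

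Other vascular genes were read from lists that only hold genes named in the study's list. The direction, size and calls of their breed differences follow from that choice and are not independent evidence. Over all tested genes 4.98% were called, which sets no expectation for genes so chosen. Of 36 endothelial symbols 25 were named. All 25 were higher in the Lidia mean, 14 of them called, with a median log2 difference of 0.72. S1PR1, the sphingosine receptor that stabilises junctions, had means of 21.9 ± 2.95 (SD, n = 8) FPKM in the Lidia and 15.1 ± 4.68 in the Wagyu bulls. Of 9 venular and leukocyte recruitment genes named out of 13, 3 were called higher and 2 lower, and CXCL12, a chemokine of vessels and meninges, had means of 16.8 ± 7.73 and 5.89 ± 3.22 FPKM. Of 19 mural symbols 7 were named, all 7 higher and 2 called, and NOTCH3, a receptor of pericytes and smooth muscle, had 2.30 ± 0.247 and 1.51 ± 0.466 FPKM.

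Of 14 ligands and receptors of the VEGF and PDGF families 3 were named. KDR, the VEGF receptor 2, stood at 1.60 ± 0.424 (SD, n = 8) FPKM in the Lidia bulls and at 0.816 ± 0.288 in the Wagyu bulls, a log2 difference of 0.90 ± 0.19 (SE). PGF, a ligand of FLT1, gave 0.64 ± 0.26, and PDGFC, a ligand of PDGF receptors, was lower in the Lidia bulls with -0.76 ± 0.21. Of 7 named genes of the basement membrane 4 were called higher and 1 lower, beside 4.98% called over all genes. These genes too were restricted to the study's list, so nothing is read from the counts. COL4A1, a chain of collagen IV, gave -0.48 ± 0.12 while LAMB2, a laminin chain, gave 0.79 ± 0.20. For none of the lists was a gene called between the farms.

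The lists of other cells were likewise restricted to genes of the study's list, so that their differences between the breeds were fixed by that choice too, and most of their members were not called. Beside the 4.98% called over all genes, which sets no expectation for genes so chosen, 5 of 7 named astrocyte genes were called, all higher in the Lidia bulls, of the microglial genes 2 of 6 and of the oligodendrocyte genes 2 of 10, likewise higher. Of the meningeal genes 6 of 11 were called higher, with a median log2 difference of 1.98. Of 8 neuronal genes 1 was called, lower, and the median was -0.44. The summed neuronal level ran from 478 to 690.5 FPKM in the Lidia and from 555 to 920 in the Wagyu bulls, and the astrocyte sum from 406 to 672 and from 245 to 607. Of red cell genes only HBB was named, at 0.336 to 4.97 FPKM in the Lidia bulls and 0 to 1.86 in the Wagyu bulls, the only marker of these lists at 0 in any animal. The part of these cell types in the differences of the 8 genes was not tested.

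The genes whose pattern was most like each of the 8, with breed means removed, were ranked by Pearson's r over the 16 bulls among the named genes. ESAM had the closest companions, SLC38A5, an amino acid transporter of brain endothelium, with r = 0.97 and ENG, an endothelial co-receptor of TGF-beta, with 0.96. CDH5 and PDGFRB shared their first companion, B4GALT1, a galactosyltransferase, with r = 0.94 for each, and no gene of the 16586 compared came closer to either. OCLN, a tight junction protein, followed CDH5 with 0.94. For the other 5 genes unnamed genes lay closer than the first named one. CLDN5 came closest to SPHK1, a sphingosine kinase, with r = 0.93, or 0.87 without Montealto 2, and 1 unnamed gene lay closer. The first of VCAM1 was CDH5 itself, with 0.84 and 6 unnamed genes closer. That of FLT1 was CCDC141, with 0.83 and 10 unnamed genes closer. Among the named genes ACKR1 was most like GJB1, a gap junction protein of myelinating glia, with 0.84, though 134 unnamed genes of the 16586 lay closer. CSPG4 was most like ENSBTAG00000049125, with 0.85 and 6 unnamed genes closer. This r was 0.65 without Montealto 2. These r are descriptions over animals that share library and factor.

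The share of each transcript in the FPKM of its gene does not enter the total that chose the genes. In CDH5 the estimate was nearly all or none. ENSBTAT00000009760 and ENSBTAT00000064232 have 12 exons each, of which 11 are identical, and share 96.4% and 96.3% of their exon bases, so that only their starts differ. ENSBTAT00000064232 took at least 96.2% of CDH5 in 7 bulls (Wagyu 3, 4 and 7 and La Quinta 2 and 3 and Montealto 1 and 2) and at most 4.91% in the other 9, with no value between. Both farms had 2 bulls of each kind, and the mean share of ENSBTAT00000009760 was 49.7% ± 52.9 (SD, n = 8) in the Lidia and 61.6% ± 49.4 in the Wagyu bulls (exact two-sided permutation test, adjusted p = 0.775 over 3 transcripts). The 3 Wagyu bulls of the first kind included the highest 2 in CDH5.

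In FLT1 the full-length ENSBTAT00000061117 has 30 exons and the shorter ENSBTAT00000086632 has 15, of which 13 are identical. The short transcript took 4.81 to 34.4% of FLT1, with means of 18.5% ± 10.2 (SD, n = 8) in the Lidia and 13.4% ± 9.48 in the Wagyu bulls (exact two-sided permutation test, adjusted p = 0.460). The long transcript alone stood at 2.54 ± 0.821 FPKM in the Wagyu bulls, 2.95 ± 0.160 in La Quinta (n = 4) and 3.81 ± 0.663 in Montealto (n = 4). In PDGFRB, whose 2 transcripts share 22 of 23 exons, ENSBTAT00000061140 took 13.3 to 81.0% with means of 59.2% ± 13.7 in the Lidia and 45.7% ± 19.8 in the Wagyu bulls (n = 8, exact two-sided permutation test, adjusted p = 0.407). None of the 3 transcript shares thus differed beyond the spread between animals.

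**Figure D5:**
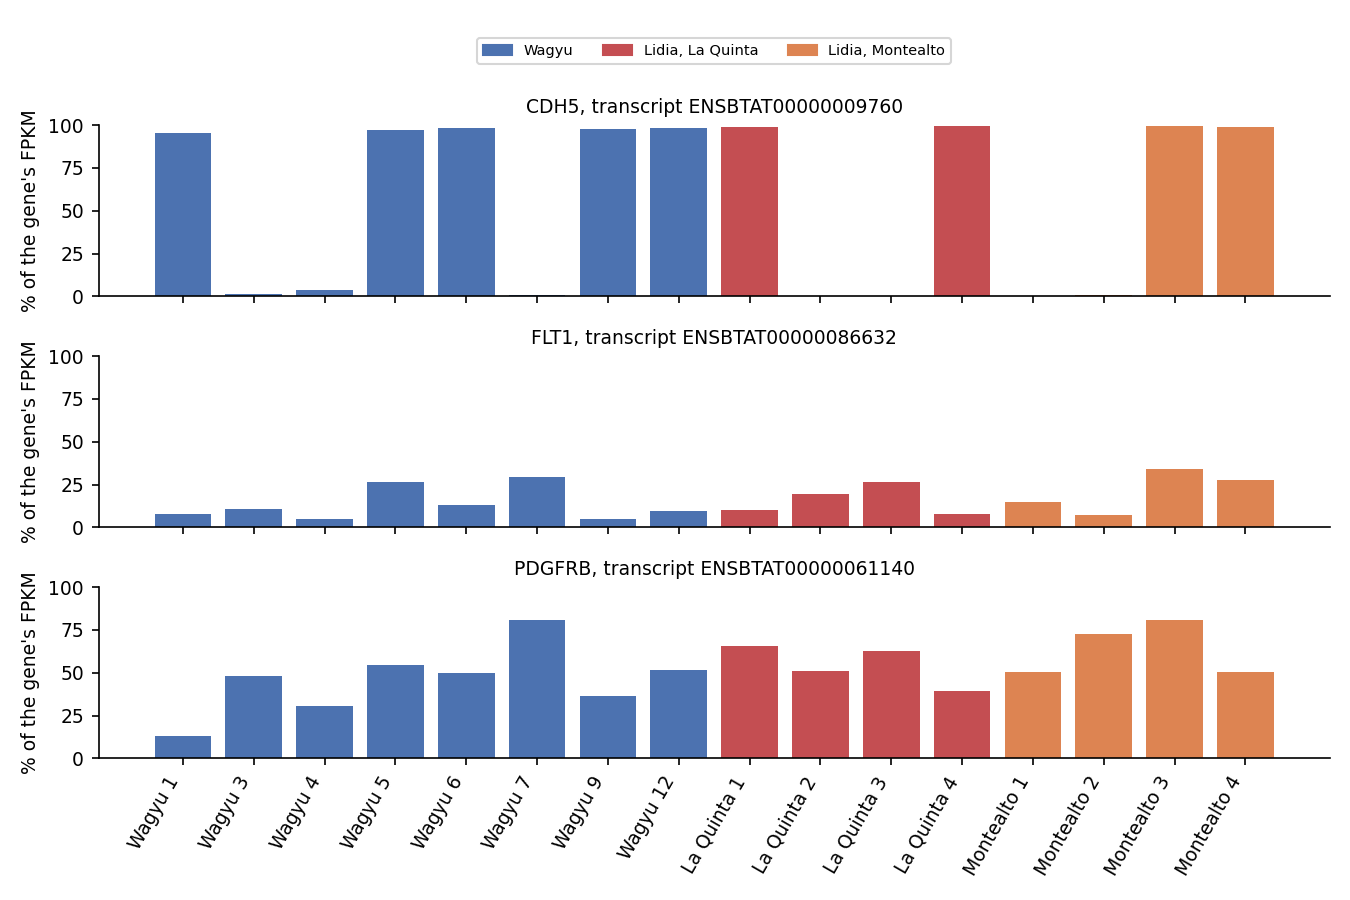
Percent of a gene's FPKM taken by 1 of its 2 transcripts in each bull (bars, axis from 0 to 100), for CDH5, FLT1 and PDGFRB, coloured by breed and farm. The CDH5 bars are either near 0 or near 100 in all 3 groups, and those of FLT1 run from 4.81 to 34.4%.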

How the data were processed

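Stranded mRNA libraries of PFC, 1 from each of 8 Lidia and 8 Wagyu bulls, had been sequenced with paired reads of 100 bases. Per the labels and the study's methods, reads were trimmed (PRINSEQ), mapped to ARS-UCD 1.2 (STAR 2.7.3a) and sorted (SAMtools 0.1.18), and the authors deposited FPKM estimated with Cufflinks 2.2.1 for 43984 transcripts per animal, with the coverage of each. These values are not read counts. They are scaled to all fragments mapped in each animal but carry no further factor between animals. Fragments were estimated from coverage and FPKM at 200 bases each, and precision rests on the spread between animals.

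Gene FPKM was summed over transcripts and divided by the median of ratios over 15998 genes. The test was limma 3.58.1 (R 4.3.3; two-sided, trended variance in eBayes, Benjamini-Hochberg adjustment) on log2(FPKM + 0.1) of genes whose mean reached 0.1, between breeds and, with 3 group means, between farms. Breed came from the labels and farm from the study's sample sheet. Cuffdiff, the authors' own test, could not be run on FPKM. Single relations used exact permutation (Python 3.11.15, scipy 1.17.1). Symbols came from the study's gene list, whose columns of fold changes and p-values were not used. The 8 genes, the lists and the rule for named genes (the 8, the 3 most similar named genes of each, and the highest of each list) were chosen with earlier results of these data known. Alternatives were other pseudocounts, filters and scalings, no trend, a rank-sum test and leaving out animals.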

Additional observations from a re-analysis of the deposited data

Results flagged for a closer look

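In 4 of 32 sets of animals (8 genes in each breed and each Lidia farm), the highest or lowest animal lay farther from its neighbour than Dixon's limit allows. The limit was applied to FPKM without a logarithm. It is meant to mark about 1 in 20 single sets by chance, but these sets share their animals, and each farm lies within the Lidia set. The count of 4 is therefore not compared with chance. CLDN5 reached 98.4 FPKM in Montealto 2, against 21.8 to 31.5 in the other 7 Lidia bulls, and this animal was marked both among all 8 Lidia bulls and among the 4 of Montealto. ESAM was 5.66 FPKM in the same animal, against 1.93 to 3.25 in the others. PDGFRB was 2.72 FPKM in Wagyu 3, against 0.624 to 1.58 in the other 7 Wagyu bulls.

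Montealto 2 also had the highest summed levels of the mural list (183 FPKM) and of the oligodendrocyte list (403) among the 16 animals. Most of that mural sum was 1 gene, PPP1R14A, with 131 FPKM. The meningeal sum of this animal was the lowest of the Lidia bulls (16.8). Wagyu 3 had the highest meningeal (35.1), endothelial (103) and astrocyte (607) sums of its breed. The part of these in the high values was not tested.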

How the results depend on the processing

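The log2 differences of the 8 genes from the Wagyu bulls kept their sign under every alternative run. The 826 genes called between breeds became 0 as deposited and 206 without La Quinta 4 and Wagyu 5 together, and ran from 363 (without Wagyu 12) to 1426 (without Wagyu 3) with 1 animal left out, when 2 to 7 of the 8 genes were called. The 15 genes called between farms became 6 as deposited, 8 with a mean FPKM of at least 1, 8 without La Quinta 4 and Wagyu 5 together and 7 with the 8 Lidia bulls alone, and 6 to 14 with 1 animal left out. Of the 56 pair relations, 23 passed as deposited, 2 without La Quinta 4 and Wagyu 5 together, and 0 to 5 with 1 animal left out. Of the 16 meningeal relations, 2 to 9 passed with 1 animal left out, and of the 14 level steps 6 to 10.

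Some farm differences turned their sign: CLDN5 to 0.033 and ACKR1 to 0.19 as deposited, and CDH5 to -0.061 without La Quinta 4 and Wagyu 5 together. With 1 animal left out they ran from -0.53 to 0.20 for CLDN5, from -0.14 to 0.25 for CDH5 and from -0.35 to 0.093 for ACKR1. As deposited, r of ACKR1 with PDGFRB in the Lidia bulls was 0.10, and r of FLT1 with CSPG4 in the Wagyu bulls was 0.85, against -0.07 after rescaling. The cause was not tested. No paired analysis was possible because the breeds share no replicate number. With 8 animals a breed and levels under 1 FPKM for VCAM1 in the Wagyu bulls and CSPG4, small differences were beyond reach.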
